A study of Homo sapiens with 9 samples.

Results

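Fatty acid synthesis and desaturation enzymes were examined in SKOV3 cells, an established human ovarian carcinoma line, given one of 2 acetylated amino sugars. The genes, and the other lists below, were chosen by their role in the pathway, with earlier results of these data known. Their counts beside those of all probe sets are thus a description and not an independent test. The 10 symbols were ACLY, ACSS2, ACACA, ACACB, FASN, ELOVL5, ELOVL6, SCD, FADS1 and FADS2. Each was read on a probe set annotated to that gene alone. This gave 9 of the 10, out of 14215 genes measured in that way on the array. ELOVL5 lies only on a probe set that also names the pseudogene RPS16P5, so no value is given for it. The 3 groups were cells given 50 µM peracetylated 4-deoxy-GlcNAc (Ac-4-deoxy-GlcNAc), cells given 50 µM peracetylated GlcNAc (Ac-GlcNAc), and untreated cells, all kept for 3 days in the same serum-containing medium. Each group had 3 arrays, each from a separate flask of this one line. The controls are labelled untreated, and no vehicle is named in the labels. Both sugars carry acetyl groups that let them cross the membrane, and the 4-deoxy compound lacks the hydroxyl group at carbon 4 of the sugar. The study was thus a comparison, at one dose and one time, of the transcriptional response to the natural sugar and to its 4-deoxy analog.

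Fatty acid synthesis starts in the cytosol from acetyl-CoA, which ATP citrate lyase (ACLY) makes from citrate and acetyl-CoA synthetase (ACSS2) makes from acetate. Acetyl-CoA carboxylase turns it into malonyl-CoA, and fatty acid synthase (FASN) builds palmitate from both. Elongases lengthen the chain, stearoyl-CoA desaturase (SCD) places the first double bond, and the FADS desaturases act on polyunsaturated chains taken from the diet or medium. Many of these genes are known targets of the sterol regulatory element-binding proteins (SREBP), which also drive cholesterol synthesis, and tumour cells often make much of their own fatty acid.

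The values are log2 expression per probe set, so a difference of 1 is a doubling. Array medians lay between 6.58 and 6.65, and untreated replicate 2 had the narrowest spread over probe sets, with an SD of 1.92 against 2.07 to 2.18 on the other arrays. All 9 epithelial carcinoma markers examined were above the median level of all probe sets, with ERBB2, which this line is known to overexpress, at the 99.8th percentile. WT1, PAX8 and MSLN stood for ovarian origin, and 2 of these 3 were above the median. The 4 adipocyte markers measured, ADIPOQ, PLIN1, FABP4 and LIPE, were all at or below the 38.9th percentile. By the test defined in the next paragraph, 0 of the 4 were called in any comparison, where 0.442% to 11.0% of all probe sets were. With Ac-4-deoxy-GlcNAc against untreated cells, 5.38% of all probe sets were called higher and 5.64% lower. Of the 9 epithelial markers, 1 was higher and 3 were lower in that comparison. Of 5 leukocyte markers 1 was lower, and of 5 endothelium markers 1 was higher. The highest leukocyte marker, CD68, was at the 85.3rd percentile, and the highest fibroblast marker, COL1A1, at the 77.7th. Of 6 fibroblast markers, 4 were lower on the Ac-4-deoxy-GlcNAc arrays by the same test. Their mean level was 5.77 to 5.78 on Ac-4-deoxy-GlcNAc arrays, 5.92 to 6.08 on Ac-GlcNAc arrays and 6.28 to 6.44 on untreated arrays, and their part in the results below was not tested. All arrays came from the SKOV3 line alone. In its bulk RNA, fewer cells expressing a gene and less RNA per cell cannot be told apart.

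Ac-4-deoxy-GlcNAc raised 5 of the 9 enzymes against untreated cells and lowered 0. They were SCD (1.63-fold), ACSS2 (1.53-fold), the carboxylases ACACB (1.49-fold) and ACACA (1.32-fold), and FASN (1.31-fold). ACLY, ELOVL6, FADS1 and FADS2 did not pass the test, with log2 differences of 0.20, 0.073, 0.14 and 0.10. A gene was called at a limma adjusted p (Benjamini-Hochberg over all 17859 probe sets) under 0.05. By that rule 11.0% of all probe sets were called in this comparison, 5.38% higher and 5.64% lower, and 8.79% were called higher among the 8930 probe sets at or above the median level, where all 9 enzymes lie. With Ac-GlcNAc, 0 of the 9 were called against the same untreated arrays, where 0.442% of all probe sets were (0.207% higher and 0.235% lower). Of the 9, 0 reached an unadjusted p under 0.05 there either, against 26.4% of all probe sets. A limma F test among the 3 groups called the same 5 enzymes and 8.36% of all probe sets. Since each group is 3 flasks of 1 line, p-values measure the spread between flasks.

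On these 5 genes the Ac-4-deoxy-GlcNAc arrays were above all 6 other arrays, a pattern seen on 4.63% of probe sets. Against untreated cells alone, 6 of the 9 did not overlap with Ac-4-deoxy-GlcNAc, where 32.1% of probe sets did not (13.0% in the higher direction), and 2 of the 9, ACSS2 and ACLY, did not overlap with Ac-GlcNAc, where 32.3% did not. The plot of the values by array shows the gap, and shows that the other 4 enzymes have no such gap. The median log2 difference of the 9 enzymes was 0.38 with Ac-4-deoxy-GlcNAc, beside -0.051 over all probe sets and 0.054 over probe sets at or above the median level. With Ac-GlcNAc it was 0.14, beside -0.017 over all probe sets and 0.10 over probe sets at or above the median level. The Ac-GlcNAc median was thus close to that of other well-expressed genes.

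**Figure D1:**
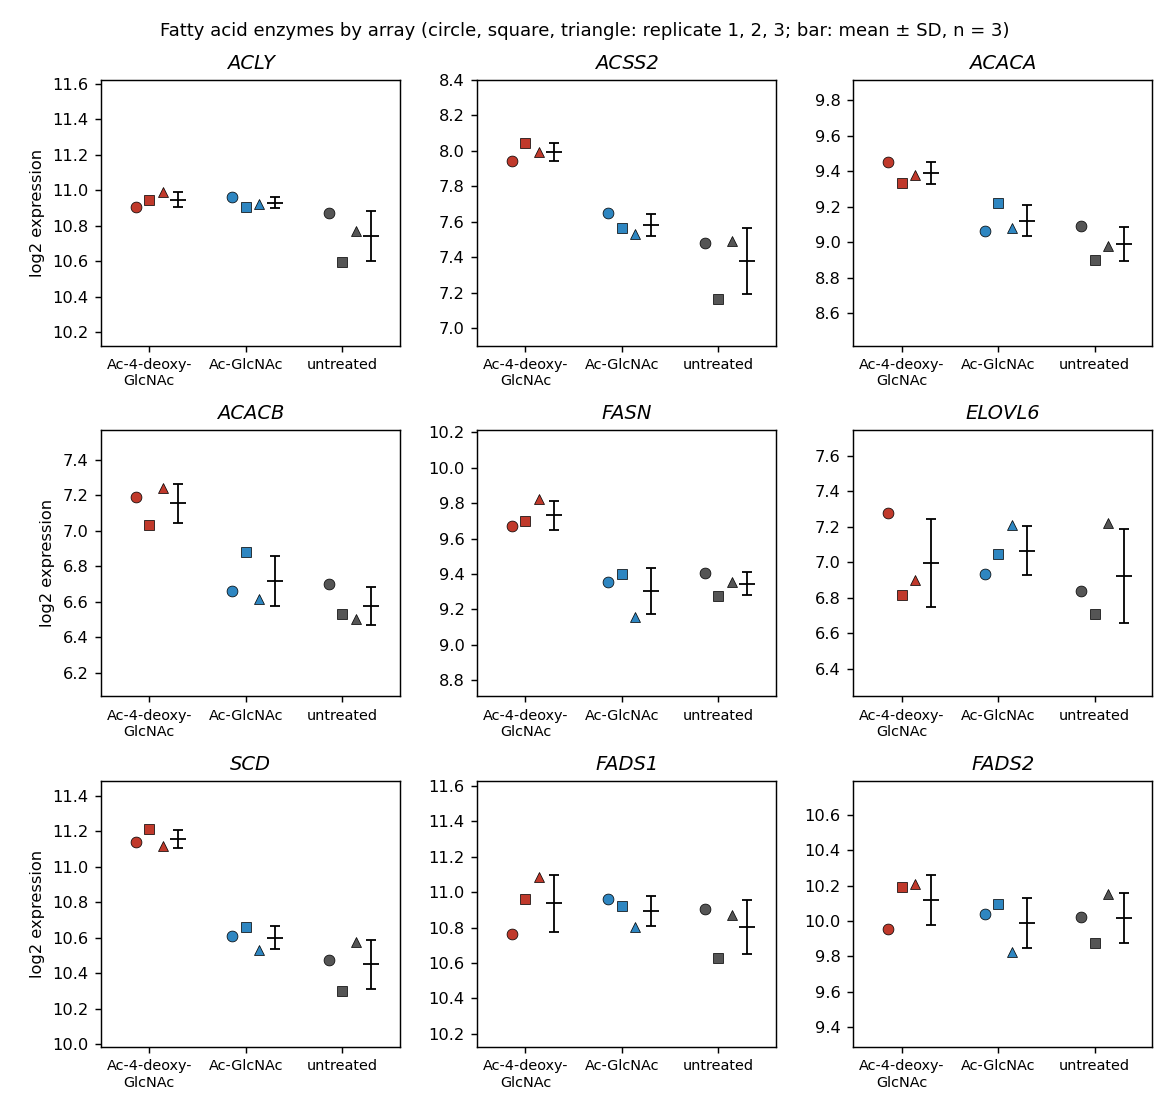
Log2 expression of the 9 measured enzymes on each of the 9 arrays, in panels that all span 1.5 log2 units. Points are arrays (circle, square and triangle for replicates 1, 2 and 3) and bars are group means ± SD (n = 3). In the ACSS2, ACACA, ACACB, FASN and SCD panels the 3 Ac-4-deoxy-GlcNAc arrays lie above all others.

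The sequences just upstream of 4 of these genes are shown to set the 2 largest rises, SCD and ACSS2, beside 2 enzymes that did not pass, ACLY and ELOVL6. The sequences are the 250 bases before the outermost annotated start in RefSeq (GRCh38.p14, a later build than the authors' hg18), in lower case. Capitals mark matches on either strand to CCAAT, the box bound by NF-Y, and to GGGCGG, the box bound by Sp1.
SCD, chr10:100346983-100347232, plus strand: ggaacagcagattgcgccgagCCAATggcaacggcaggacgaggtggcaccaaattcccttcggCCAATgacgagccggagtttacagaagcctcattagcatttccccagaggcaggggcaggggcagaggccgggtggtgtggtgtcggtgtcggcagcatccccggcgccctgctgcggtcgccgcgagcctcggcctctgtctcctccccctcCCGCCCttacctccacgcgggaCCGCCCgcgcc
ACSS2, chr20:34874739-34874988, plus strand: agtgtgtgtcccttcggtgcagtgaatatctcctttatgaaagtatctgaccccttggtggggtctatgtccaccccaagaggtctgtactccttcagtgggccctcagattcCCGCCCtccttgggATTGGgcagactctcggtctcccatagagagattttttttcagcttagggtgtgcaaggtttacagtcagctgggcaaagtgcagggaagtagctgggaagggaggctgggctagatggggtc
ACLY, chr17:41919023-41919272, minus strand: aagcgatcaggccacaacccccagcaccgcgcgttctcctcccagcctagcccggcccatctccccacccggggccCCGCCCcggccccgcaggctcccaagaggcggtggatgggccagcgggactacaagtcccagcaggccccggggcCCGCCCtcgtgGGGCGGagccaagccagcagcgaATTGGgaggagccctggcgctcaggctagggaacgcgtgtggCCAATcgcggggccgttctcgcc
ELOVL6, chr4:110198616-110198865, minus strand: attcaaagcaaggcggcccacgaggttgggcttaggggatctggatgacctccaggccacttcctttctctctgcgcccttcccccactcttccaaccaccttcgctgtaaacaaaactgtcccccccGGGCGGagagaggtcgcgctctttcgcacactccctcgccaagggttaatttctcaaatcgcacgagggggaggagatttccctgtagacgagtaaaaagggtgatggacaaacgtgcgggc

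Promoter sequences were matched for 9 of the 10 symbols, with 15 annotated starts, and FASN was not matched. CCAAT was found within 250 bases of a start in 6 of the 9 genes. By start it was found at 8 of the 15, against 32.0% of 35116 promoters of the same length. SCD holds 2 copies, and so does ACLY, which was not called. GGGCGG was found in 8 of the 9 genes and at 11 of the 15 starts, against 42.6% of promoters. The core sterol regulatory element TCACNCCAC was found in 0 of the 9 and in 0.883% of promoters, and the E-box CACGTG in ELOVL5 alone and in 6.34% of promoters. A gene with several starts has more windows to match, and a match or its absence in these windows is a description of the sequence only.

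Of the 2 enzymes that supply acetyl-CoA, ACSS2 rose with Ac-4-deoxy-GlcNAc and ACLY did not pass the test. ACSS2 had log2 values of 7.94, 8.05 and 7.99 with Ac-4-deoxy-GlcNAc, of 7.65, 7.56 and 7.53 with Ac-GlcNAc, and of 7.48, 7.16 and 7.49 in untreated cells. The 3 groups did not overlap, and untreated replicate 2 was the lowest array. With Ac-4-deoxy-GlcNAc, ACSS2 rose by 0.62 against untreated (SE 0.10, 95% interval 0.39 to 0.84, adjusted p = 0.00402). Leaving out 1 compared array at a time gave 6 fits, all of which called it, with values of 0.51 to 0.67. With Ac-GlcNAc the difference from untreated was 0.20 (-0.022 to 0.43, adjusted p = 0.227), which did not pass. It was 0.096 without untreated replicate 2 and 0.0031 with array SD as a covariate.

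ACLY had log2 values of 10.90, 10.95 and 10.99 with Ac-4-deoxy-GlcNAc, of 10.96, 10.91 and 10.92 with Ac-GlcNAc, and of 10.87, 10.59 and 10.77 in untreated cells. All 6 sugar-treated arrays were above the 3 untreated ones, though narrowly above untreated replicate 1. Neither compound passed the test, at 0.20 (95% interval -0.0018 to 0.41, adjusted p = 0.163) with Ac-4-deoxy-GlcNAc and 0.19 (-0.018 to 0.39, adjusted p = 0.223) with Ac-GlcNAc. Without untreated replicate 2 these were 0.13 and 0.11. The difference between ACSS2 and ACLY in their response was not itself tested.

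Both acetyl-CoA carboxylases rose with Ac-4-deoxy-GlcNAc. ACACA encodes the cytosolic enzyme that commits acetyl-CoA to fatty acid synthesis, and ACACB encodes the form at the mitochondrial surface, whose malonyl-CoA restrains fatty acid oxidation. ACACB had log2 values of 7.19, 7.03 and 7.24 with Ac-4-deoxy-GlcNAc, of 6.66, 6.88 and 6.61 with Ac-GlcNAc, and of 6.70, 6.53 and 6.50 in untreated cells. The Ac-4-deoxy-GlcNAc arrays stood apart, while the Ac-GlcNAc and untreated arrays overlapped. The rise was 0.58 (SE 0.11, 95% interval 0.35 to 0.80, adjusted p = 0.00592), and all 6 leave-one-out fits called it.

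ACACA had log2 values of 9.45, 9.33 and 9.38 with Ac-4-deoxy-GlcNAc, of 9.06, 9.22 and 9.08 with Ac-GlcNAc, and of 9.09, 8.90 and 8.98 in untreated cells. The Ac-4-deoxy-GlcNAc arrays were again the highest, with a smaller gap, and the other groups overlapped. The rise against untreated was 0.40 (SE 0.09, 95% interval 0.20 to 0.60, adjusted p = 0.020). The call held in 4 of 6 leave-one-out fits. Removing Ac-4-deoxy-GlcNAc replicate 1 or 3 ended it (adjusted p = 0.0655 and 0.0670). With Ac-GlcNAc, ACACB differed from untreated by 0.14 (-0.086 to 0.37) and ACACA by 0.13 (-0.072 to 0.33), and neither passed. Without Ac-GlcNAc replicate 2 these were 0.061 and 0.081, and without untreated replicate 2 they were 0.12 and 0.086. After cyclic loess they were 0.11 and 0.014.

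FASN, the multifunctional synthase that releases palmitate, had log2 values of 9.67, 9.70 and 9.82 with Ac-4-deoxy-GlcNAc, of 9.36, 9.40 and 9.16 with Ac-GlcNAc, and of 9.41, 9.28 and 9.35 in untreated cells. Ac-GlcNAc and untreated arrays overlapped throughout. FASN rose by 0.38 with Ac-4-deoxy-GlcNAc (SE 0.10, 95% interval 0.17 to 0.59, adjusted p = 0.0266). This call held in 2 of 6 leave-one-out fits. Removing Ac-4-deoxy-GlcNAc replicate 1 or 3 ended it (adjusted p = 0.0529 and 0.113), and so did removing untreated replicate 2 or 3 (adjusted p = 0.0635 and 0.0552). The size of the rise stayed between 0.34 and 0.41 in those fits. With Ac-GlcNAc, FASN differed from untreated by -0.040 (-0.25 to 0.17, adjusted p = 0.815).

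ELOVL6, the elongase that extends palmitate to stearate, varied more between arrays of a group than the other enzymes did with Ac-4-deoxy-GlcNAc and in untreated cells. It had log2 values of 7.28, 6.81 and 6.90 with Ac-4-deoxy-GlcNAc, of 6.94, 7.05 and 7.21 with Ac-GlcNAc, and of 6.84, 6.71 and 7.22 in untreated cells. The 3 groups overlapped fully. The differences from untreated were 0.073 (95% interval -0.24 to 0.39) with Ac-4-deoxy-GlcNAc and 0.14 (-0.17 to 0.46) with Ac-GlcNAc. These intervals leave room for a change of the size seen in FASN, so a rise of that size is not excluded.

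SCD, which makes oleate from stearate and is the main source of monounsaturated fatty acid in many cells, had the largest rise of the 9. Its log2 values were 11.14, 11.21 and 11.12 with Ac-4-deoxy-GlcNAc, 10.61, 10.66 and 10.53 with Ac-GlcNAc, and 10.47, 10.30 and 10.58 in untreated cells. The Ac-4-deoxy-GlcNAc arrays were tightly grouped and well above the rest, and the other 2 groups overlapped. SCD rose by 0.71 (SE 0.10, 95% interval 0.50 to 0.92, adjusted p = 0.00129), a difference larger than that of 99.2% of all probe sets. All 6 leave-one-out fits (0.63 to 0.77) and all 11 other settings that could change the value or its p called it. With Ac-GlcNAc, SCD differed from untreated by 0.15 (-0.060 to 0.36, adjusted p = 0.329). That value was 0.074 without untreated replicate 2, 0.033 after cyclic loess and 0.029 after quantile normalization.

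Neither polyunsaturated fatty acid desaturase passed the test. FADS1 and FADS2 lie side by side on chromosome 11 with overlapping first parts in RefSeq, and each was read on its own probe set. FADS1, which makes arachidonic and eicosapentaenoic acid, had log2 values of 10.76, 10.96 and 11.09 with Ac-4-deoxy-GlcNAc, of 10.96, 10.92 and 10.80 with Ac-GlcNAc, and of 10.91, 10.63 and 10.87 in untreated cells. FADS2, which takes the first desaturation step on linoleic and alpha-linolenic acid, had 9.96, 10.19 and 10.21 with Ac-4-deoxy-GlcNAc, 10.04, 10.10 and 9.83 with Ac-GlcNAc, and 10.02, 9.88 and 10.15 in untreated cells. On both genes all 3 groups overlapped. The differences between Ac-4-deoxy-GlcNAc and untreated were 0.14 (95% interval -0.10 to 0.38, adjusted p = 0.417) for FADS1 and 0.10 (-0.14 to 0.34, adjusted p = 0.554) for FADS2. Leaving out 1 array at a time gave 0.048 to 0.22 for FADS1 and 0.031 to 0.18 for FADS2, with the lowest of each found without untreated replicate 2. The upper bounds of both lie below the lower bound of 0.50 for SCD, and the difference between the genes was not itself tested.

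**Figure D2:**
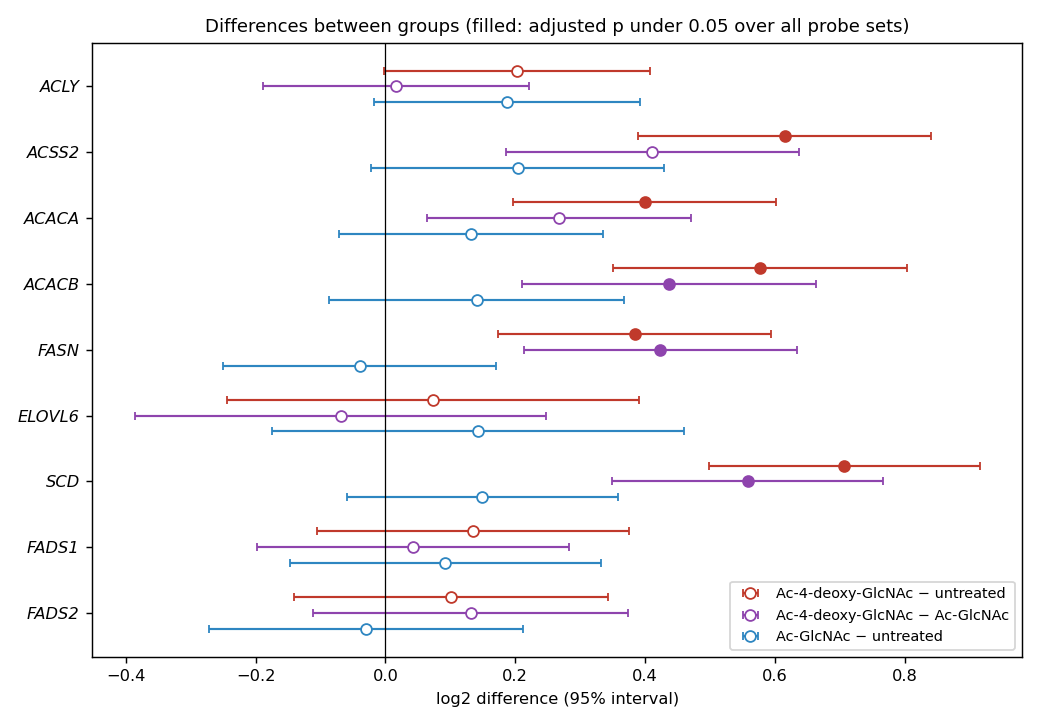
Log2 differences of the 9 enzymes between the groups, with 95% intervals from the limma fit on 9 arrays. Filled points passed an adjusted p of 0.05 over all probe sets. SCD, ACACB and FASN are filled for Ac-4-deoxy-GlcNAc against both untreated cells and Ac-GlcNAc, ACSS2 and ACACA against untreated cells only, and no Ac-GlcNAc against untreated point is filled.

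The 2 compounds were compared directly at the same dose and time. They differ in the hydroxyl group at carbon 4 and, with it, in the number of acetyl groups carried. Of the 9 enzymes, 3 had higher levels under Ac-4-deoxy-GlcNAc and 0 had lower ones, where 2.38% of all probe sets were called and 0.896% were called higher. SCD was higher by 0.56 (SE 0.10, 95% interval 0.35 to 0.77, adjusted p = 0.00952), ACACB by 0.44 (SE 0.11, 0.21 to 0.66, adjusted p = 0.0472) and FASN by 0.42 (SE 0.10, 0.21 to 0.63, adjusted p = 0.0368). On these 3, and on ACSS2 and ACACA, the arrays of the compounds did not overlap, a separation found in the higher direction on 9.56% of probe sets. ACSS2 differed by 0.41 (0.19 to 0.64, adjusted p = 0.0586) and ACACA by 0.27 (0.064 to 0.47, adjusted p = 0.185), and neither passed.

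Each of these calls was lost in 1 or more of the fits that left out 1 compared array. Over all probe sets those fits called 141 to 493, against 425 with all arrays. SCD passed in 5 of 6 leave-one-out fits and missed without Ac-GlcNAc replicate 3 (adjusted p = 0.0517). ACACB was called in 1 of the 6, the one without Ac-4-deoxy-GlcNAc replicate 2, and FASN in 0 of the 6 (adjusted p = 0.0678 to 0.159). With the replicate number as a block, SCD alone was called. ACSS2 was called in 0 of the 6 leave-one-out fits (adjusted p = 0.135 to 0.201). It was called under 10 of the 11 settings other than leaving out 1 array, all but that block. The sizes in these leave-one-out fits were 0.52 to 0.59 for SCD, 0.39 to 0.52 for ACACB and 0.35 to 0.47 for FASN.

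For the other 4 enzymes the compounds were not separated. ACLY differed by 0.016 (95% interval -0.19 to 0.22), FADS1 by 0.043 (-0.20 to 0.28), FADS2 by 0.13 (-0.11 to 0.37) and ELOVL6 by -0.069 (-0.39 to 0.25). All 4 intervals lie below the SCD difference of 0.56, and the difference between the genes was not itself tested. These intervals do not show that the compounds act alike on these genes.

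**Figure D3:**
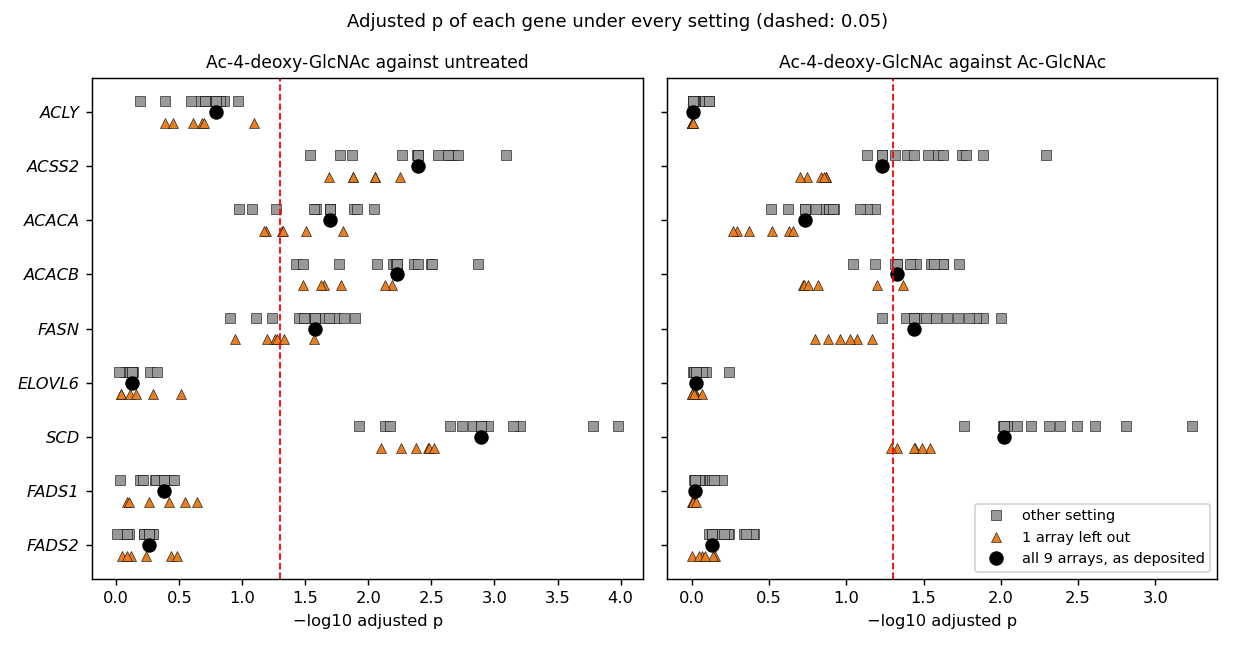
The adjusted p of each enzyme, as −log10, in the fit of all 9 arrays as deposited, in the 6 leave-one-out fits and under 13 other settings, with 0.05 dashed. The 2 settings on the choice of probe set repeat the first fit, since they leave these genes on the same probe sets. Points to the right of the line were called. Against untreated cells SCD, ACSS2 and ACACB stay to the right in each fit, and against Ac-GlcNAc most leave-one-out fits move ACACB and FASN to the left.

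Untreated replicate 2 was the lowest of the untreated arrays on 8 of the 9 enzymes. It was also the lowest on 63.8% of those 8930 probe sets, and it is the array with the narrowest spread. Without it, the differences between Ac-4-deoxy-GlcNAc and untreated were 0.63 for SCD, 0.51 for ACSS2, 0.55 for ACACB, 0.35 for ACACA and 0.35 for FASN, of which the last was not called. After cyclic loess, which removes level-dependent shifts between arrays, 5 enzymes were again called, among 2265 of all 17859 probe sets (1186 higher), against 1968 (960 higher) before it.

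Among genes that regulate the pathway, INSIG1 had the clearest rise. Of 13 measured lipogenic regulators, 1 rose and 1 fell with Ac-4-deoxy-GlcNAc against untreated, with a median log2 difference of 0.00037. In this comparison, for this list and those that follow, the shares over all probe sets were 5.38% higher and 5.64% lower. INSIG1 holds SREBP and its escort SCAP in the endoplasmic reticulum and is itself an SREBP target. Its log2 values were 8.13, 8.22 and 7.93 with Ac-4-deoxy-GlcNAc, 7.32, 7.28 and 7.40 with Ac-GlcNAc, and 7.29, 7.24 and 7.62 in untreated cells. It rose by 0.71 against untreated (SE 0.12, adjusted p = 0.00323) and was 0.76 higher than with Ac-GlcNAc (SE 0.12, adjusted p = 0.00469), both held by 6 of 6 leave-one-out fits. Its relative INSIG2 fell by 0.38 (SE 0.10, adjusted p = 0.0322), called in 2 of the 6.

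The transcription factors themselves showed no called change. SREBF1, which encodes the SREBP forms most tied to fatty acid genes, had log2 values of 7.45, 7.68 and 7.63 with Ac-4-deoxy-GlcNAc, of 7.50, 7.58 and 7.33 with Ac-GlcNAc, and of 7.53, 7.44 and 7.48 in untreated cells. Its log2 difference against untreated was 0.10 for Ac-4-deoxy-GlcNAc (95% interval -0.11 to 0.32) and -0.013 for Ac-GlcNAc (-0.23 to 0.20). The groups overlapped, and mRNA level does not report the cleavage that activates these proteins. With Ac-4-deoxy-GlcNAc the differences from untreated were -0.052 for SCAP, -0.095 for MLXIPL, which encodes the glucose-sensing lipogenic factor ChREBP, and 0.00037 for NR1H3, which encodes a liver X receptor. MID1IP1, which helps acetyl-CoA carboxylase polymerise, differed by 0.26 (-0.015 to 0.53, adjusted p = 0.180). SREBF2 is paired with MIR33A on its only probe set, and it and NR1H2 were not analysed here.

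Carbon and reducing power for the pathway come from citrate export and from NADPH-making enzymes. Of 10 such genes measured, 0 rose and 1 fell with Ac-4-deoxy-GlcNAc, and their median log2 difference was 0.18. SLC2A1, the glucose transporter, fell by 0.34 (SE 0.09, adjusted p = 0.0357), a call kept by 1 of 6 leave-one-out fits. With Ac-GlcNAc the smallest p-values were those of DLAT, a subunit of pyruvate dehydrogenase, at 0.40, and ME1, the NADPH-making malic enzyme, at 0.52 (adjusted p = 0.0887 each), neither called.

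Other elongases, desaturases and their partners were mostly not called. Of 13 measured, 1 rose with Ac-4-deoxy-GlcNAc and 0 fell, with a median log2 difference of -0.033. The gene was CYB5B, an electron carrier of the mitochondrial outer membrane, at 0.42 (SE 0.09, adjusted p = 0.0136). In the separate mitochondrial fatty acid pathway, 0 of 6 genes rose and 1 fell, the ketoacyl synthase OXSM, by 0.59 (SE 0.13, adjusted p = 0.0157), a call kept by 4 of 6 leave-one-out fits. OXSM was also lower than with Ac-GlcNAc by 0.55 (adjusted p = 0.0461), a call kept by 2 of 6 leave-one-out fits.

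Among 14 genes of acyl-CoA synthesis and fatty acid uptake, 1 rose and 1 fell with Ac-4-deoxy-GlcNAc. SLC27A2, which transports long fatty acids and joins them to CoA, had log2 values of 7.63, 7.75 and 7.89 with Ac-4-deoxy-GlcNAc, of 7.37, 7.25 and 7.12 with Ac-GlcNAc, and of 6.85, 6.69 and 6.85 in untreated cells. The 3 groups did not overlap. It rose by 0.96 with Ac-4-deoxy-GlcNAc (SE 0.10, adjusted p = 0.000291), and with Ac-GlcNAc the difference was 0.45 (adjusted p = 0.0755), which did not pass. Between the compounds it differed by 0.51 (adjusted p = 0.0221), called in 3 of 6 leave-one-out fits. CD36, the fatty acid scavenger receptor, fell by 0.48 (adjusted p = 0.0371). Its mean level was at the 9.5th percentile of probe sets, and 3 of 6 leave-one-out fits called it. After cyclic loess CD36 differed by -0.29 (adjusted p = 0.0503), which did not pass.

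Of 18 glycerolipid and lipid droplet genes, 2 rose and 0 fell with Ac-4-deoxy-GlcNAc, where 5.38% of all probe sets were called higher. The median log2 difference of the 18 was 0.091. PNPLA3, a lipid droplet protein known as an SREBP target, had log2 values of 7.52, 7.45 and 7.79 with Ac-4-deoxy-GlcNAc, of 6.74, 6.78 and 6.67 with Ac-GlcNAc, and of 6.77, 6.42 and 6.74 in untreated cells. The Ac-4-deoxy-GlcNAc arrays were above all others, and the remaining 2 groups overlapped. It rose by 0.95 against untreated (SE 0.12, adjusted p = 0.00076) and was 0.86 higher than with Ac-GlcNAc (SE 0.12, adjusted p = 0.00267), both held by 6 of 6 leave-one-out fits. CHKA, the choline kinase that opens phosphatidylcholine synthesis, rose by 0.60 (SE 0.11, adjusted p = 0.0055).

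Cholesterol synthesis shares its regulators with these enzymes, and 9 of its 14 measured genes rose and 0 fell with Ac-4-deoxy-GlcNAc, with a median log2 difference of 0.52, where 5.38% of all probe sets were called higher. HMGCS1, DHCR7, MVK and LSS rose by 0.73, 0.70, 0.69 and 0.64. Of the 9, MVD held in 4 of 6 leave-one-out fits, SQLE in 3 and the other 7 in all 6. With Ac-GlcNAc 0 of the 14 were called, with a median of 0.059. Against Ac-GlcNAc, 8 of the 14 were higher with Ac-4-deoxy-GlcNAc and 0 lower, where 0.896% of all probe sets were higher. HMGCS1, MVD and LSS held in 6 of 6 leave-one-out fits, SQLE in 2, MVK, IDI1 and DHCR7 in 1 each and MSMO1 in 0.

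Of 21 fatty acid oxidation genes, 0 rose with Ac-4-deoxy-GlcNAc and 1 fell, HADH, a dehydrogenase of the mitochondrial cycle, by 0.30 (SE 0.09, adjusted p = 0.0468), kept by 1 of 6 leave-one-out fits. With Ac-GlcNAc, ANGPTL4, a secreted inhibitor of lipoprotein lipase, rose by 0.66 (SE 0.12, adjusted p = 0.0429), called in 2 of the 6. Of 8 genes of the kinase axis that phosphorylates and inhibits acetyl-CoA carboxylase, CAMKK2 rose by 0.37 with Ac-4-deoxy-GlcNAc (SE 0.11, adjusted p = 0.0422), called in 1 of the 6, and the other 7 were not called.

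**Figure D4:**
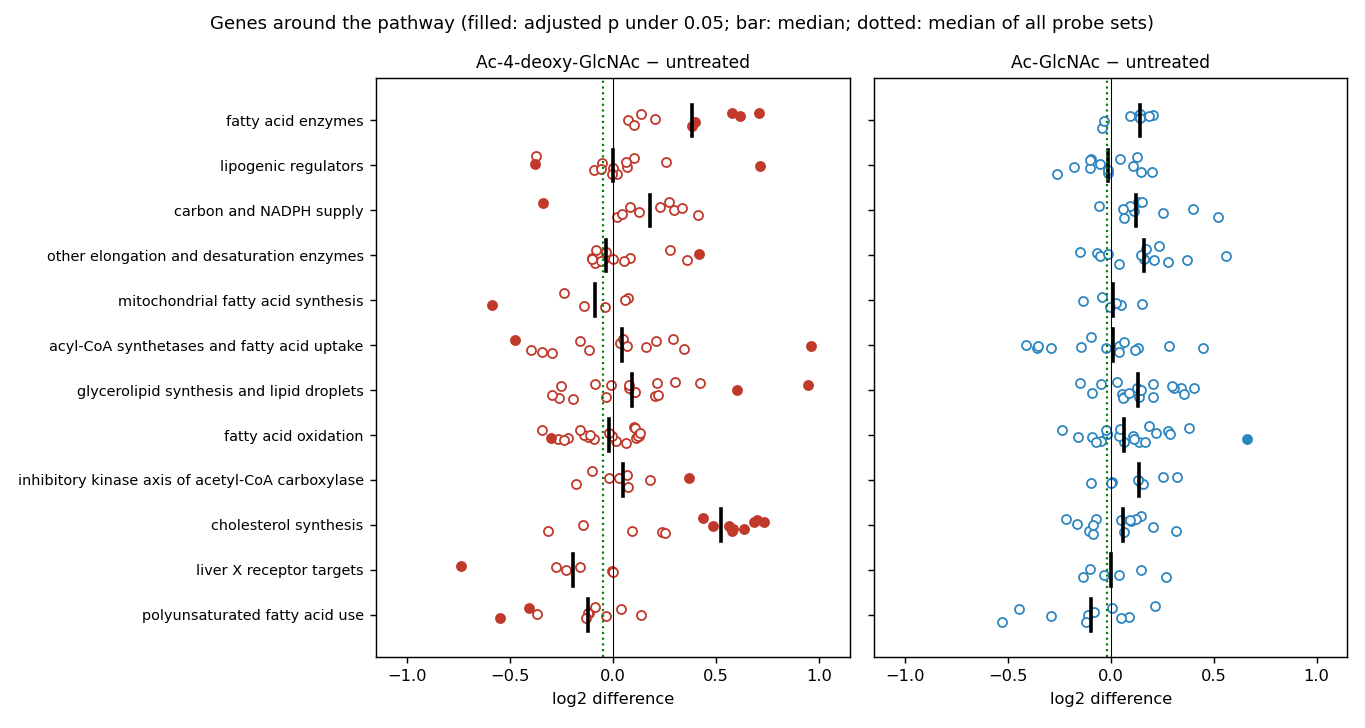
Log2 differences of the 9 enzymes and of genes around the pathway, against untreated cells, with Ac-4-deoxy-GlcNAc on the left and Ac-GlcNAc on the right. Each point is a gene, filled where the adjusted p was under 0.05, black bars are medians and the dotted line is the median of all probe sets. On the left the medians of the enzymes (0.38) and of cholesterol synthesis (0.52) lie farthest to the right, and on the right 1 point, ANGPTL4, is filled.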

How the data were processed

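RNA of SKOV3 cells was measured on 9 arrays, 3 per group. The authors deposited log2 values per probe set. RMA, Partek and the build hg18 are named for them, per the submitters' processing notes. Versions and settings are not given in the sources used here. No scanner files were used, so background correction could not be varied and signal over background is unknown. The number of arrays limits the precision, and the median SE of a log2 difference was 0.110.

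Of 17859 probe sets, 14413 name 1 gene, 2405 several and 1041 none. Symbols were updated by gene identifier through RefSeq (14385 of the 14413 found). Where a gene had several probe sets, the one with the highest mean was used.

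The values were fitted with limma 3.58.1 in R 4.3.3 (lmFit, eBayes), with group as the only term, 6 residual degrees of freedom, two-sided contrasts and Benjamini-Hochberg adjustment over all probe sets. The fit was tested on simulated data. Alternatives changed the normalization (cyclic loess, quantile, median centring), the filter on level (percentiles 25 and 50), the model (replicate block, array SD as covariate, array weights, trended and robust variances, only the 6 compared arrays), the probe set choice or the arrays included. All 9 enzymes are named. From the other lists, up to 4 called genes per comparison were taken by size. Where none was called, genes of smallest p are given for carbon and NADPH supply only. SREBF1, INSIG1, INSIG2, SCAP, MLXIPL, MID1IP1 and NR1H3 were given in any case. The members and lists were chosen with earlier results of these data known. Genes with printed promoters and with values by array were picked with their values in view.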

Additional observations from a re-analysis of the deposited data

How the results depend on the processing

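For Ac-4-deoxy-GlcNAc against untreated, 5 enzymes were called in the fit as described. That count was 3 on the 6 compared arrays alone, with array SD as a covariate, and without a pair of arrays (Ac-4-deoxy-GlcNAc replicate 1 and untreated replicate 2), and it ran from 3 to 5 with 1 array left out. Calls over all probe sets were 818, 596 and 730 in those 3 fits and 604 to 3076 with 1 array left out, against 1968. SCD, ACSS2 and ACACB were called in each of these. For Ac-GlcNAc against untreated the count of called enzymes was 0 under every setting run. Calls over the probe sets tested ran there from 2 with array SD as a covariate to 1760 with array weights, against 79 in the fit as described. Between the compounds, 3 were called, against 1 with the replicate block, which changed no other count by over 1.5 times, and 0 to 2 with 1 array left out (0 without Ac-GlcNAc replicate 3, 1 without Ac-GlcNAc replicate 1 or 2 or Ac-4-deoxy-GlcNAc replicate 1 or 3). The F test among the 3 groups called the same 5 enzymes, against 2 without the pair of arrays above and 2 to 5 with 1 array left out. Over all probe sets the F test called 1493, against 567 without that pair and 490 to 2533 with 1 array left out. The cause of these changes was not tested, and the fits that leave some arrays out also have fewer arrays. No call changed sign. Signs turned only for differences that were not called. For ELOVL6 against untreated, Ac-4-deoxy-GlcNAc gave -0.14 with array weights, -0.031 with array SD as a covariate and -0.17 without the pair of arrays. Ac-GlcNAc gave -0.071 with array weights and -0.0070 with the covariate. For FADS1, Ac-GlcNAc gave -0.023 with cyclic loess, -0.021 with quantile normalization and -0.13 with the covariate, and with that covariate Ac-4-deoxy-GlcNAc gave -0.023 for FADS1 and -0.010 for FADS2. Leaving out 1 array at a time gave, for Ac-4-deoxy-GlcNAc against untreated, -0.067 to 0.22 for ELOVL6. Between the compounds it gave -0.21 to 0.022 for ELOVL6, -0.0047 to 0.037 for ACLY and -0.031 to 0.13 for FADS1. For Ac-GlcNAc against untreated it gave -0.088 to 0.034 for FASN and -0.10 to 0.050 for FADS2. The replicate numbers were not treated as pairs, since the deviations from group means correlated above 0.1 in 3 of 9 same-numbered pairs of arrays (-0.24 to 0.37).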

Other observations

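Liver X receptor targets and genes that use polyunsaturated fatty acids lie next to the synthesis pathway. Of 6 receptor targets measured, 0 rose and 1 fell with Ac-4-deoxy-GlcNAc against untreated. In that comparison 5.38% of all probe sets were called higher and 5.64% lower. MYLIP, a ubiquitin ligase that degrades the LDL receptor, had log2 values of 6.76, 6.91 and 6.82 with Ac-4-deoxy-GlcNAc, of 7.44, 7.49 and 7.67 with Ac-GlcNAc, and of 7.44, 7.50 and 7.76 in untreated cells. The Ac-4-deoxy-GlcNAc arrays were below all others. It fell by 0.74 (SE 0.11, limma adjusted p = 0.0019), a call kept by 6 of 6 leave-one-out fits. Against Ac-GlcNAc, 2 of the 6 receptor targets were lower with Ac-4-deoxy-GlcNAc, where 1.48% of all probe sets were. MYLIP was lower by 0.70, a call kept by 6 of 6 leave-one-out fits. The cholesterol exporter ABCA1 was lower by 0.50 (adjusted p = 0.0287), a call kept by 0 of 6. Of 10 genes that use polyunsaturated fatty acids, 2 fell with Ac-4-deoxy-GlcNAc, the lipoxygenase ALOX12 by 0.55 (adjusted p = 0.0231) and the cyclooxygenase PTGS2 by 0.41 (adjusted p = 0.0212), both at low levels (percentiles 30.7 and 15.7). Leave-one-out fits kept the ALOX12 call in 3 of 6 and the PTGS2 call in 4 of 6. After cyclic loess PTGS2 fell by 0.24 (adjusted p = 0.0407).

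Over the 9 arrays the genes whose levels followed SCD most closely were SYNE3 (Pearson r = 0.981), PRR14L (0.978), PHGDH (0.975), BMP6 (0.974) and SNTB1 (0.973). Those closest to FASN were KCNQ3 (0.973), AKNA (0.973), LSS (0.968), LRRN4 (0.967) and RASGEF1A (0.965). These are the highest of 14206 genes, the arrays share their 3 groups, and the values are a description only.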
